A study of Urocitellus parryii with 3 samples.

Results

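The loci described here are stretches of genome scaffold that hold small RNA reads from arctic ground squirrel liver whose longest placed part had 24 to 29 bases. This is just longer than most microRNAs (miRNAs). A read entered when its longest placed part, over all lines that list it, had 24 to 29 bases and when it was listed on at most 9 lines. All lines of such a read were used, so at some loci it was placed over fewer bases, and the shortest locus had 18. Lines on the same strand within 10 bases were merged, which gave 11414 loci, and the 703 loci with at least 20 such reads over the 3 libraries are compared. The loci were thus chosen by placed length and by the number of reads over all 3 libraries, and neither is a result. The read minimum left 8 loci with exactly 20 reads just inside and 11 with 19 reads just outside. All reads of the table that are listed on at most 9 lines gave 2957 loci by the same rule, which serve as the background.

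Liver of wild-trapped Urocitellus parryii, a hibernating ground squirrel, was taken in 3 stages. The post-reproduction library came from 6 summer animals at normal body temperature, kept at 16 h light and 8 h dark. The early arousal library came from 4 animals and the late torpor library from 4 animals of the hibernation season, at 4 h light and 20 h dark, so season and light cycle cannot be told apart. Hibernating animals carried implanted transmitters and had passed at least 4 torpor bouts. The labels give day 4 of a bout for sampling, and whether early arousal animals were sampled on that day is not stated. Equal amounts of RNA from the animals of a stage were pooled before 1 library was made, so no test over animals is possible. Each ratio compares 2 libraries, its 95% interval covers counting error only, and a lower RNA level per cell and fewer cells of a type cannot be told apart. The libraries held 5614441 (post-reproduction), 5611673 (early arousal) and 5860476 (late torpor) placed reads, and levels are given as CPM, the reads of a locus per 1000000 placed reads of its library. Where 3 values stand together, their order is post-reproduction, early arousal, late torpor. As a check of the tissue, miR-122-5p, the main miRNA of hepatocytes, had 4099925, 3989309 and 4423515 reads placed over 18 to 23 bases.

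RNA of this length has several known sources. Y RNAs are short noncoding RNAs that bind the Ro60 protein, and their fragments come mostly from the ends of the molecule. Box C/D small nucleolar RNAs guide 2′-O-methylation of ribosomal RNA, and they carry a box C (TGATGA at its core) near the 5′ end and a box D (CTGA) near the 3′ end. Ribosomal and transfer RNAs also leave fragments. PIWI-interacting RNAs of the germ line have a similar length and often begin with uridine.

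The loci shared many reads with each other and fell into 199 families, of which 85 had 1 locus and the largest had 17. The most read locus stands for its family below. From general knowledge of their sequences, 155 families were assigned to a known RNA and 44 were not recognised. The files carry no annotation of these positions, so gene, exon and intron are not stated. The reads that carry the results are printed first, as insert sequences without adapter, 5′ to 3′, from the deposited reads. The first set shows the most counted inserts of the Y RNA fragments, which had the highest levels outside the miRNAs. No letters are in capitals in this set.
Y4 3′ fragment: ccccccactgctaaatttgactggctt
Y1 3′ fragment: cttctcactactgcacttgactagtctt
Y3 3′ fragment: ctcccactgcttcacttgactagccta
Y4 5′ fragment: ggctggtccgatggtagtgggttatca
Y1 5′ fragment: ggctggtccgaaggtagtgagttat
Y3 5′ fragment: ggctggtccgagtgcagtggtgttt
Y5 5′ fragment: agttggtccgcgggttgtgggttattgt

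The second set shows the 5 unrecognised families with the largest ratio of early arousal to late torpor where both libraries together held at least 100 reads. They are named by scaffold, and capitals mark the letters TGATGA and CTGA.
GeneScaffold_5301, base 1378: ctggaTGATGAtaagaagataaCTGAtt
GeneScaffold_5301, base 1057: tgagcatgtagacaagttttatgCTGAag
GeneScaffold_4957: gaacaTGATGAttggagttcgcatgata
GeneScaffold_1735: ttCTGAaggaaaaagtatgTGATGAcat
GeneScaffold_3572: cgtgtatttgacaagCTGAgttggacact

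Reads placed over 24 to 29 bases made up 5.25%, 4.65% and 3.42% of placed reads (294479, 260793 and 200504 reads). The share was highest in post-reproduction and lowest in late torpor, with a ratio of 0.652 (95% interval 0.649 to 0.656) between them. The loci held 746610 reads, of which 32.1% lay at the miR-122-5p locus alone and 78.2% in the 4 most read families, miR-122-5p, let-7f-5p, let-7a-5p and the Y4 3′ fragment. By class, miRNA loci held 84.0% of the reads, Y RNAs 7.88%, rRNA 5.98%, unrecognised loci 1.46%, tRNA 0.365%, and small nuclear, 7SL and U3 RNA 0.313%. The order by number of loci was different, with 372 rRNA loci in 56 families, 106 tRNA loci in 23, 87 miRNA loci in 59, 77 unrecognised loci in 44, 43 loci of small nuclear, 7SL and U3 RNA in 6, and 11 Y RNA loci in 8.

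The placed length was longer than the insert in many reads, where the first bases of the 3′ adapter were placed too. A search for the adapter in each read found an insert of at least 24 bases in 14.9%, 23.8% and 20.7% of all reads placed over 24 to 29 bases. Inserts below 24 bases were found in 49.4%, 42.3% and 49.8%, and no adapter was found in the rest. The classes differed widely in this. Over the 3 libraries, 7.19% of miRNA reads had an insert of at least 24 bases, against 85.0% for Y RNA, 76.8% for rRNA, 76.2% for small nuclear, 7SL and U3 RNA, 70.9% for unrecognised loci and 60.3% for tRNA.

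**Figure D1:**
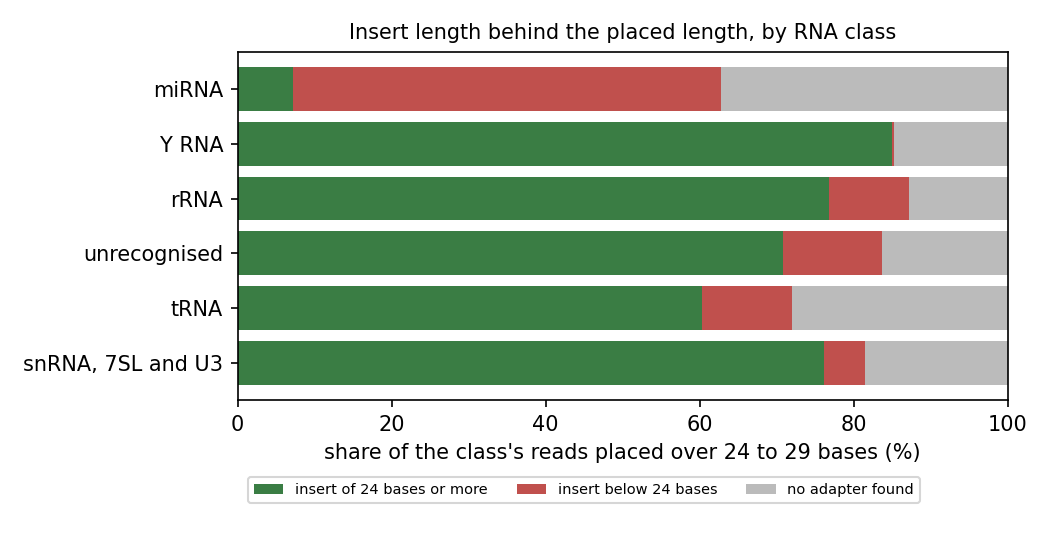
Share of reads placed over 24 to 29 bases (%, horizontal axis) whose insert had at least 24 bases, had fewer, or was not found, for 6 RNA classes (vertical axis) over the 3 libraries together. Reads with an insert of at least 24 bases were 7.19% of miRNA reads and 85.0% of Y RNA reads.

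The most counted reads of 3 miRNA loci show placed adapter bases. They are printed as 30-base reads with the adapter in capitals. At let-7f-5p the adapter's first base was placed with a 23-base insert, and at let-7b-5p its first pair of bases was placed with a 22-base insert.
let-7f-5p: tgaggtagtagattgtatagtttTCGTATG
let-7b-5p: tgaggtagtaggttgtgtggttTCGTATGC
miR-184: tggacggagaactgataagggtTGGTATGC

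The miR-184 read carries the adapter substitution C2G, counted from 1 at the adapter's first base, and the substituted base matched the scaffold. The most counted read of the miR-122-5p locus, of miR-185-5p and of miR-125b-5p had the same form. At miR-122-5p, 40477 of 109884, 12267 of 78641 and 6076 of 51202 reads were 22-base inserts with this substitution. Among 22-base inserts outside the miR-122-5p locus whose remaining adapter bases were exact, G was read at adapter base 2 in 1.03%, 0.577% and 0.254% of reads. T was read there in 9.51%, 1.34% and 0.736%. The order of the libraries for G was different at other insert lengths outside that locus. It was 0.151%, 0.250% and 0.102% at 20 bases, 0.0877%, 0.117% and 0.210% at 21 bases, and 1.17%, 1.36% and 0.998% at 23 bases, so post-reproduction was highest at 22 bases and at none of these 3 lengths.

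The 24-base placed length, which holds most of these reads, had a late torpor to post-reproduction ratio of 0.594, lower than the 0.913 at 25 bases. With inserts of at least 24 bases only, the loci together had 7378, 10516 and 6890 CPM. The order of the libraries then changed, and early arousal was highest. The ratio of early arousal to post-reproduction was 1.43 (1.41 to 1.44) for these inserts and 0.883 (0.878 to 0.888) for all reads in the loci.

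**Figure D2:**
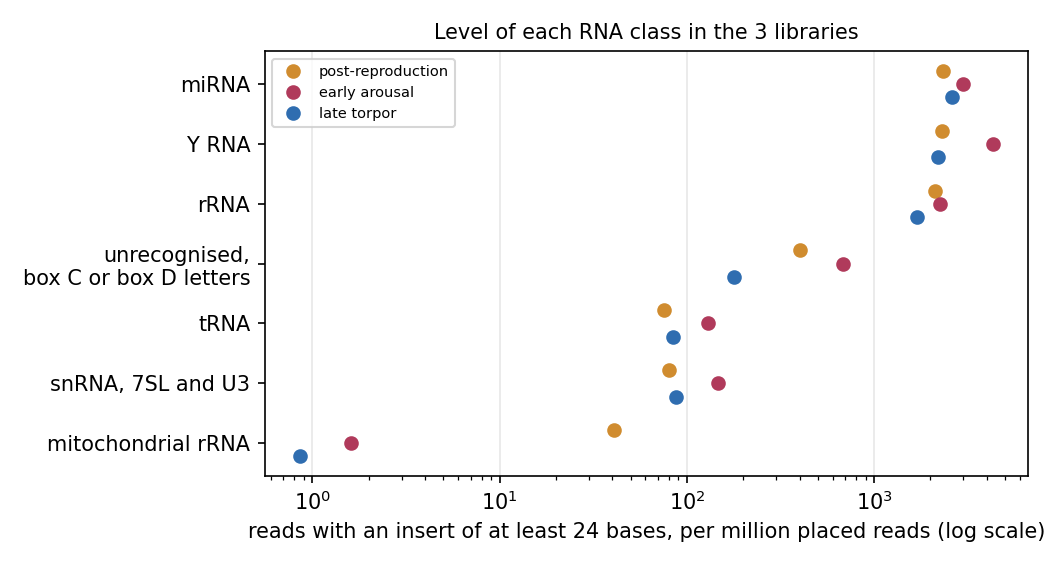
Level of reads with an insert of at least 24 bases (CPM, log scale, horizontal axis) for 7 RNA classes (vertical axis), 1 point for each library. Y RNA was at 2305, 4305 and 2204 CPM, and mitochondrial rRNA at 41.0, 1.60 and 0.853 CPM.

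A locus is called higher or lower when its ratio was at least 2-fold and its interval excluded 1. The rule that chose the loci used reads of all 3 libraries together and no ratio. In late torpor against post-reproduction, 35 of 703 loci were higher and 148 lower, or 4.98% and 21.1%, where the background had 12.3% higher and 17.2% lower. In either direction it was 26% of the loci and 29.6% of the background. In early arousal against post-reproduction, 56 were higher and 86 lower (7.97% and 12.2%), with 17.1% and 6.53% in the background, and 20.2% against 23.7% in either direction. In early arousal against late torpor, 116 were higher and 25 lower (16.5% and 3.56%), with 19.1% and 4.06% in the background, and 20.1% against 23.1% in either direction. The shares of the last comparison were near the background. Lower loci were more frequent than in the background in both comparisons with post-reproduction, and higher loci less frequent, which describes these libraries and has no test.

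The median log2 ratio was -0.44 in late torpor against post-reproduction (all loci of the table -0.15), 0.00071 in early arousal against post-reproduction (0.29) and 0.28 in early arousal against late torpor (0.40). By family, 12 were higher and 40 lower in the first comparison, 19 and 22 in the second, and 35 and 6 in the third. Scaling by trimmed mean of M-values in place of placed reads lowered every log2 ratio of early arousal against late torpor by 0.45 (a change of -0.45) and of early arousal against post-reproduction by 0.34 (-0.34), and raised those of late torpor against post-reproduction by 0.11. The comparisons with early arousal below are therefore read against the medians of all loci. The comparisons also share libraries with each other and are not independent.

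**Figure D3:**
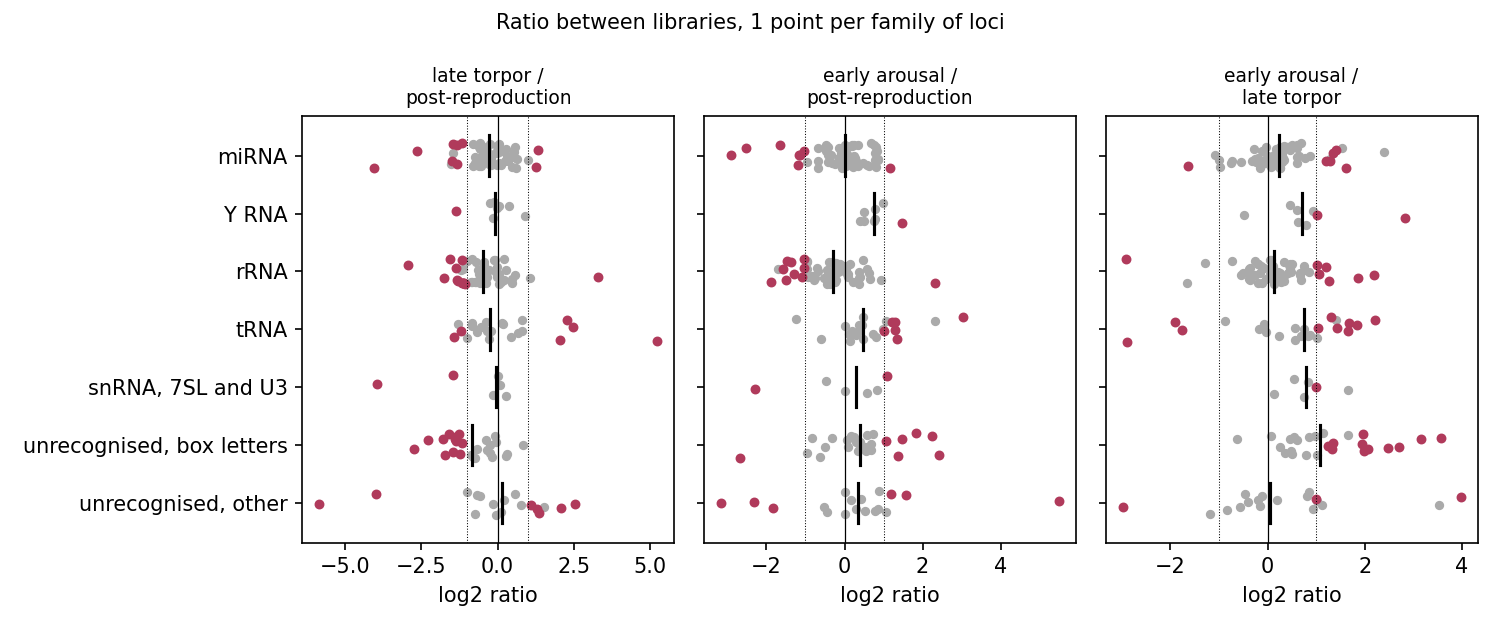
Log2 ratio between libraries (horizontal axis) for each family's most read locus, by RNA class (vertical axis), in 3 comparisons; red points were at least 2-fold different with an interval excluding 1, grey points were not, black bars are medians and dotted lines mark 2-fold. The mitochondrial and mRNA families are not drawn. Families with box letters were lower in late torpor than in post-reproduction in 12 of 26 cases and higher in none.

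Reads of the Y RNA loci were most frequent in early arousal. The class had 2905, 4951 and 2520 CPM. Early arousal was 1.70-fold (1.67 to 1.74) above post-reproduction and 1.97-fold (1.93 to 2.00) above late torpor, while late torpor was at 0.867 (0.848 to 0.887) of post-reproduction. All 8 families had a ratio above 1 in early arousal against post-reproduction and 7 of 8 against late torpor. Over all families, 118 of 199 and 142 of 199 had a ratio above 1 in these comparisons. Under trimmed mean of M-values scaling the class ratios were 1.35 and 1.44, still above 1.

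The Y4 3′ fragment was the most read locus outside the miRNAs. It lay on the plus strand of GeneScaffold_3573 at bases 113000 to 113041 and had 13432, 22907 and 11917 reads. Early arousal was the highest library, and the ratio to late torpor was 2.01 (1.96 to 2.05). At this locus 84.1% of reads had an insert of at least 24 bases. Inserts of 27 bases, such as the one printed above, were the most frequent length in each library, with 36.5%, 39.8% and 42.6% of reads. Reads of the same stretch that were placed over 18 to 23 bases numbered 1476, 2751 and 1164, and those placed over all 30 bases 528, 2096 and 460, so both were highest in early arousal too.

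The Y1 and Y3 genes lay on the same scaffold. The Y1 3′ fragment (minus strand, 6851 to 6889) had 1700, 2944 and 1615 reads, a ratio of 1.90 (1.79 to 2.02) between early arousal and late torpor. Its most frequent insert had 28 bases. The Y1 5′ fragment had 224, 314 and 239 reads, and the Y4 5′ fragment 270, 532 and 365. The Y3 5′ fragment had 489, 690 and 470 reads, and the Y3 3′ fragment 102, 173 and 104. Each of these was highest in early arousal. A locus in the middle of Y3 (2914 to 2951) had 6, 8 and 12 reads and was called higher or lower in no comparison. The 3 genes differed in which end was read. Per read of the 5′ fragment there were 41.4 reads of the 3′ fragment at Y4, 8.06 at Y1 and 0.230 at Y3, and the order of the genes was the same in each library. At Y4 this ratio was 49.7, 43.1 and 32.6. These ratios changed with the placed length. Over 18 to 23 bases the 5′ and 3′ fragments had 900 and 5391 reads at Y4, 453 and 1502 at Y1, and 659 and 73 at Y3. Over 30 bases they had 16 and 3084 at Y4, 387 and 236 at Y1, and 27 and 11 at Y3. At Y1 the direction was thus the opposite over 30 bases, while at Y4 and Y3 it was the same. Most reads of the Y3 5′ fragment were also placed on GeneScaffold_1601, and most of the Y3 3′ fragment on scaffold_117764. The Y3 ratio is thus not of this gene alone. The Y4 3′ fragment shared some of its reads with a locus on GeneScaffold_3161.

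**Figure D4:**
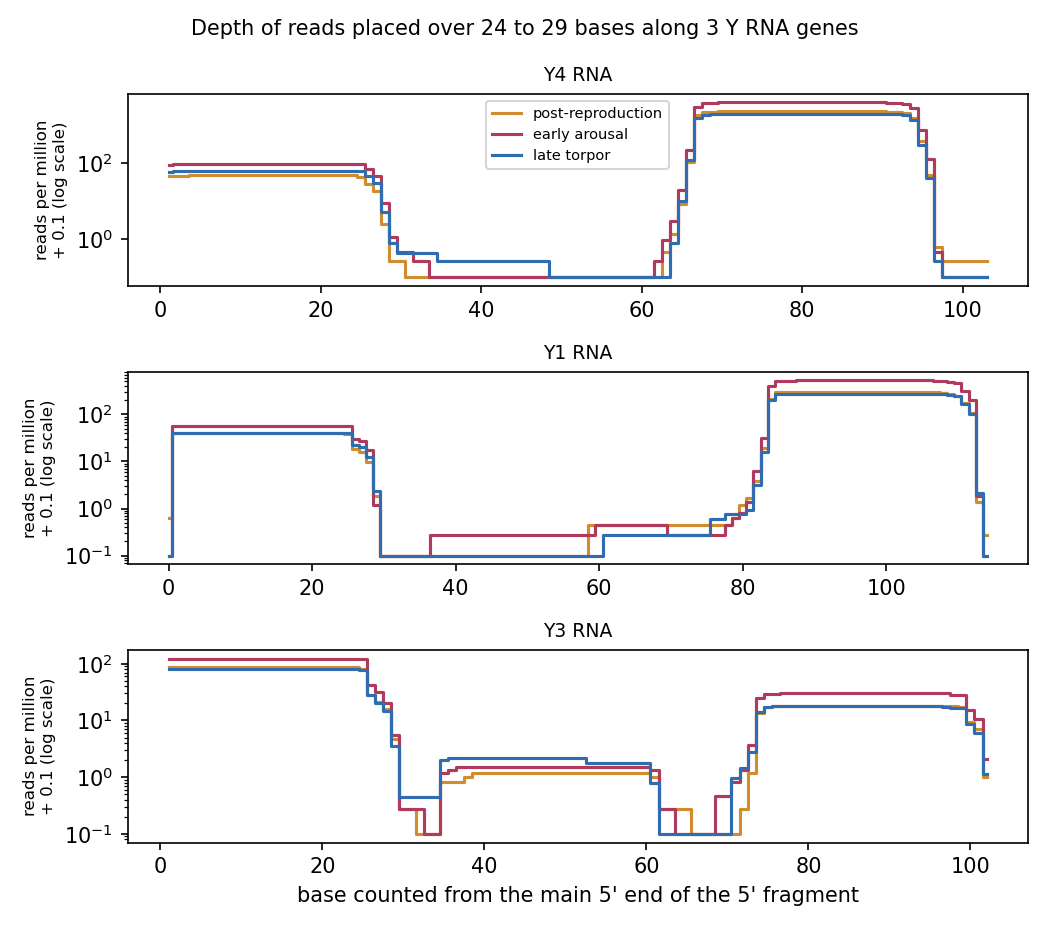
Depth of reads placed over 24 to 29 bases, in CPM plus 0.1 (log scale, vertical axes), along the Y4, Y1 and Y3 genes (bases from the main 5′ end of the 5′ fragment, horizontal axes), with a line for each library. Depth was high at both ends of each gene and low between them, and the 3′ end of Y4 reached the highest depth. The middle of Y3 was covered by a locus of 6, 8 and 12 reads.

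A Y5-like 5′ fragment (GeneScaffold_2229, plus strand, 579439 to 579469) differed most between the libraries among the Y RNAs. It had 67, 187 and 27 reads. Early arousal was 2.79-fold (2.10 to 3.75) above post-reproduction and 7.23-fold (4.81 to 11.3) above late torpor. Its reads placed over 18 to 23 bases numbered 27, 45 and 11, in the same order.

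Among the 44 unrecognised families, 26 had TGATGA or CTGA in at least 50% of their reads, searched on the read strand. TGATGA was in the most counted read of 5.53% of all 199 families, against 1.56% of families of reads placed over 18 to 23 bases and 8.82% of those placed over 30. CTGA was in 23.1%, 6.86% and 23.5%. These shares count letters and not boxes. The 26 families together had 510, 777 and 205 CPM. Early arousal was 3.79-fold (3.56 to 4.04) above late torpor, and late torpor was at 0.402 (0.375 to 0.430) of post-reproduction. These sums weigh families by their reads. The median log2 ratio over the 26 families was 1.07 and -0.84 in these comparisons, against 0.35 and -0.36 over all 199 families. In early arousal against late torpor 11 families were higher and 0 lower, and 25 of 26 had a ratio above 1. In late torpor against post-reproduction 12 were lower and 0 higher. Over all families 17.6% were higher and 3.02% lower in the former comparison, and 20.1% were lower and 6.03% higher in the latter. A ratio of early arousal to late torpor above 1 was found in 142 of all 199 families. The 18 unrecognised families without these letters had a class ratio of 0.997 (0.907 to 1.09) between early arousal and late torpor. Under trimmed mean of M-values scaling the ratio of the 26 families was 2.77.

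The most read of them lay on the minus strand of GeneScaffold_5301 at bases 1378 to 1407. It had 1230, 2049 and 386 reads. Late torpor was the lowest library, at 0.301 (0.267 to 0.337) of post-reproduction, and early arousal was 5.54-fold (4.97 to 6.2) above it. Its most counted insert, printed above, has TGATGA near its 5′ end and CTGA near its 3′ end. A second family on the same scaffold and strand, at 1057 to 1098, had 130, 364 and 58 reads, and early arousal was 6.55-fold (4.96 to 8.80) above late torpor.

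The GeneScaffold_4957 family (minus strand, 47167 to 47213) had 337, 536 and 134 reads. The GeneScaffold_3572 locus (plus strand, 36193 to 36221) had 24, 130 and 11 reads, a ratio of 12.3 (6.67 to 25.3) between early arousal and late torpor. It was also 5.42-fold (3.49 to 8.76) above post-reproduction in early arousal. The GeneScaffold_1735 family (minus strand, 305423 to 305468) had 67, 175 and 20 reads. At that stretch most reads were longer, with 103, 890 and 26 reads placed over 30 bases. Not every family of this kind followed the same order. GeneScaffold_5877 had 270, 191 and 110 reads and scaffold_139949 had 160, 128 and 105, both highest in post-reproduction. Of the 12 families with at least 100 reads, 10 were highest in early arousal and 12 were lowest in late torpor. Of all 26, 20 were highest in early arousal and 22 lowest in late torpor, and the other 4 were not lowest there.

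**Figure D5:**
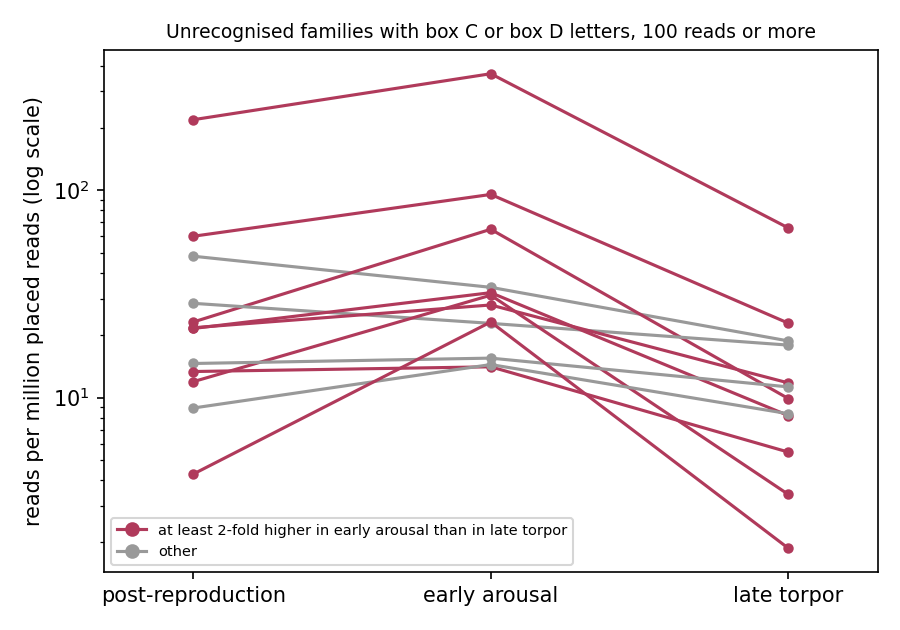
Level in CPM (log scale, vertical axis) in the 3 libraries (horizontal axis) for the 12 unrecognised families with box C or box D letters and at least 100 reads; red lines are the 8 families at least 2-fold higher in early arousal than in late torpor. All 12 were lowest in late torpor, and 10 were highest in early arousal.

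The ratio of early arousal to late torpor differed with the placed length over all reads of the table. From 18 to 23 bases it was 1.75, 1.35, 1.503, 1.08, 0.938 and 0.903, lowest at 23. From 24 to 30 bases it rose with each base, through 1.24, 1.45, 1.58, 1.83, 2.06, 2.70 and 4.80. RNA of 18 to 30 nt was cut from a gel for each library, and the part of this step in the ratios was not tested. Within rRNA, Y RNA and the families with box letters the ratio was higher at 29 than at 24 bases, though not at every step between, and the order of the classes was not the same at each length. At 24 bases it was 1.12 (1.07 to 1.18) for rRNA, 1.77 (1.56 to 2.01) for Y RNA and 1.48 (1.20 to 1.83) for the families with box letters. At 25 bases these values were 1.18, 1.70 and 2.13, at 26 bases 1.21, 1.84 and 2.90, and at 27 bases 1.35, 1.96 and 2.28. At 28 bases they were 1.46 (1.34 to 1.60), 1.91 (1.85 to 1.97) and 4.69 (4.22 to 5.22), and at 29 bases 2.48, 2.38 and 9.42.

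Fragments of ribosomal RNA had 2891, 2844 and 2120 CPM. Late torpor was at 0.733 (0.716 to 0.751) of post-reproduction. The ratio of early arousal to late torpor was 1.34, near the median of all loci, and 0.982 under trimmed mean of M-values scaling, so its direction depends on the scaling. The most read family, of the 28S rRNA (scaffold_114894, minus strand, 49890 to 49987), had 6997, 8178 and 5348 reads and was highest in early arousal. Several smaller families were highest in post-reproduction. In late torpor against post-reproduction 12 of 56 families were lower and 1 was higher, and in early arousal against post-reproduction 9 were lower and 1 was higher. Over all 199 families 20.1% were lower and 6.03% higher in the first of these comparisons, and 11.1% and 9.55% in the second. The share of lower rRNA families in the first comparison was near that of all families.

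Among 18S families, the small ribosomal subunit, post-reproduction had 315 CPM, early arousal 203 and late torpor 168. A ratio above 1 in early arousal against post-reproduction was found in 3 of these 20 families and in 118 of all 199. The 18S family on scaffold_114728 (minus strand, 408 to 478) had 180, 48 and 24 reads, at 0.128 (0.0798 to 0.196) in late torpor against post-reproduction. The 18S family on scaffold_106312 (plus strand, 18146 to 18204) had 177, 62 and 54 reads. Its shorter reads, placed over 18 to 23 bases, numbered 471, 154 and 134 and followed the same order. The 28S family on scaffold_59339 (minus strand, 763 to 892) had 853, 347 and 352 reads, while its shorter reads numbered 17584, 18922 and 4420. Early arousal was thus low among the longer reads of that stretch and highest among the shorter ones. The 28S family on scaffold_106312 (plus strand, 24142 to 24257) had 325, 116 and 159 reads. One 28S family (scaffold_114894, minus strand, starting at base 53834) was higher in late torpor, with 3, 4 and 35 reads. It reached the minimum of 20 reads only through late torpor.

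The largest difference among families with at least 100 reads was a mitochondrial 16S rRNA-like family (scaffold_116102, minus strand, 4555 to 4583), a fragment of the large ribosomal RNA of mitochondria. It had 304, 13 and 5 reads. The post-reproduction library was far above both others, and late torpor was at 0.0158 (0.00508 to 0.0372) of it. Its shorter reads numbered 298, 47 and 13. An unrecognised family on the same scaffold and strand, starting at base 5294, had 27, 5 and 0 reads, in the same order. This family and the 16S rRNA-like family reached the read minimum only through post-reproduction, the library in which they were highest. Their calls are thus tied to the read minimum. A count of 0 in late torpor allows up to 3 reads, or 0.512 CPM.

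Transfer RNA fragments had 133, 208 and 138 CPM. Early arousal was 1.56-fold (1.42 to 1.71) above post-reproduction, and 21 of 23 families had a ratio above 1. Over all families 118 of 199 did. Under trimmed mean of M-values scaling the class ratio was 1.23. The tRNA-Lys family (GeneScaffold_3124, plus strand, 49315 to 49356) had 59, 146 and 42 reads, 2.48-fold (1.82 to 3.41) above post-reproduction in early arousal. Its reads placed over 30 bases numbered 56, 336 and 76, again highest in early arousal, while its reads placed over 18 to 23 bases numbered 295, 576 and 1302 and were highest in late torpor. Against post-reproduction, 4 tRNA families were higher in late torpor and 2 lower, where all families had 6.03% higher and 20.1% lower. By locus 11 were higher and 19 lower, and the median log2 ratio over the tRNA families was -0.25. The lower families were tRNA-Glu (91, 91 and 35 reads) and tRNA-Gly (38, 41 and 17). The higher families had few reads and were tRNA-Gln (4, 5 and 19 reads), tRNA-Leu (3, 4 and 17), tRNA-Arg (2, 20 and 14) and tRNA-Met (0, 2 and 19). Of these, tRNA-Gln, tRNA-Leu and tRNA-Met reached the minimum of 20 reads only through late torpor, the library in which they were called higher. Their calls are thus tied to the read minimum. The 0 of tRNA-Met in post-reproduction allows up to 3 reads, or 0.534 CPM.

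Small nuclear RNAs belong to the spliceosome. A U2 family on GeneScaffold_5043 had 252, 540 and 317 reads, 2.14-fold (1.84 to 2.50) above post-reproduction in early arousal. Another U2 family, on GeneScaffold_5511, had 67, 48 and 25 reads and was lower in late torpor than in post-reproduction, at 0.357 (0.216 to 0.574). U3, a box C/D RNA needed for 18S rRNA maturation, had 51, 10 and 3 reads at its locus. Its shorter reads numbered 235, 85 and 58, and both counts were highest in post-reproduction. The U3 locus reached the read minimum only through that library. Small nuclear RNA and U3 families, and other families named here with under 100 reads over both libraries of a comparison, were chosen after their values were seen.

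Among the miRNA loci, 2 of 59 families were higher and 7 lower in late torpor against post-reproduction, 1 and 7 in early arousal against post-reproduction, and 5 and 1 in early arousal against late torpor. Over all families the shares were 6.03% and 20.1%, 9.55% and 11.1%, and 17.6% and 3.02%. The share of lower miRNA families was thus below that of all families in the first comparison and near it in the second. The miR-122-5p locus had 109884, 78641 and 51202 reads and a late torpor to post-reproduction ratio of 0.446 (0.442 to 0.451). Its log2 ratio was 0.37 when only inserts of at least 24 bases were counted, the opposite direction. These were 812, 1615 and 1095 reads, 1.47% of the locus. No adapter was found in 67678, 61399 and 40965 reads of the locus, so the insert length of most of its reads is not known. The let-7f-5p locus had 87802, 69242 and 64246 reads, a late torpor to post-reproduction ratio of 0.701 (0.694 to 0.708). Its inserts of at least 24 bases, 3.0% of the reads, numbered 1557, 2701 and 2423, with a ratio of 1.49 (1.40 to 1.59), also the opposite direction. Its reads placed over 18 to 23 bases numbered 463136, 538515 and 561128 and were lowest in post-reproduction too. The let-7a-5p locus had 22841, 26630 and 24810 reads. The miR-184 locus had 93, 12 and 15 reads. Of these, 52, 3 and 3 were the printed read with the adapter substitution, and 4, 2 and 4 had an insert of at least 24 bases. Its reads placed over 18 to 23 bases numbered 4113, 1455 and 2474.

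Some miRNA loci consisted mostly of inserts of at least 24 bases. The miR-7-5p locus had 1970, 2021 and 1759 reads, 78.0% of them with such an insert, and its libraries differed little, with a ratio of 0.855 (0.802 to 0.913) between late torpor and post-reproduction. The miR-181c-5p locus had 33, 75 and 50 reads and was 2.27-fold (1.49 to 3.54) above post-reproduction in early arousal. At miR-181a-5p, of the same family, the reads numbered 1040, 1856 and 1273, a ratio of 1.79 (1.65 to 1.93). Both were highest in early arousal. The miR-451a locus had 34, 41 and 85 reads, 98.1% with an insert of at least 24 bases, and late torpor was 2.40-fold (1.59 to 3.68) above post-reproduction. The miR-144-5p locus had 39, 31 and 102 reads, a ratio of 2.51 (1.72 to 3.72), but 84.9% of its inserts were below 24 bases. The miR-144-5p locus is an 18-base stretch of GeneScaffold_1737. Its most counted read, listed on 3 lines, was placed there over only 18 bases. The miR-451a locus lay on another scaffold, GeneScaffold_2360. In mammals these miRNAs come from 1 precursor cluster known for its expression in red blood cells, and whether the miR-144-5p stretch belongs to it was not tested. Shorter reads at these loci were also highest in late torpor, with 322, 408 and 681 at miR-451a and 14, 24 and 28 at miR-144-5p. The part of blood in the libraries was not tested.

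Of the other miRNA loci with many reads, miR-191-5p, miR-30a-5p and miR-221-5p were called higher or lower in no comparison. The miR-191-5p locus had 4683, 5332 and 4779 reads, miR-30a-5p 2237, 1611 and 1537, and miR-221-5p 1516, 1284 and 1322. At miR-378a-3p, which is encoded in the Ppargc1b gene in mammals, post-reproduction was highest with 87 reads against 38 in early arousal and 33 in late torpor. This locus had fewer reads and was called lower in both comparisons with post-reproduction. Late torpor was at 0.363 (0.236 to 0.548) and early arousal at 0.437 (0.290 to 0.647) of post-reproduction. Shorter reads of this locus followed with 23204, 16230 and 16611. The locus is 19 bases long, and its most counted read, listed on 5 lines, was placed there over 18 bases. Whether this stretch is the miRNA's own gene was not tested.

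A first-base uridine, known for PIWI-interacting RNAs, was less frequent than among shorter reads. The most counted read began with T in 26.1% of the 199 families, against 58.0% of families of reads placed over 18 to 23 bases and 11.8% of those placed over 30, and without the miRNA families in 17.9% of 140. A was at base 10 in 27.1%. No locus overlapped another on the opposite strand, so no pair of reads overlapped by 10 bases at their 5′ ends. The loci lay on 285 scaffolds, 360 on the plus and 343 on the minus strand. Within families that were higher or lower in a comparison, shorter reads of the same stretch mostly fell on the same side of 1. This held for 31 of the 35 families lower in late torpor against post-reproduction that had at least 20 such reads, and for 27 of the 31 families higher in early arousal against late torpor. The shorter reads were 2-fold lower in 21 of the 35, and 2-fold higher in 13 and 2-fold lower in 1 of the 31. Over all loci of the table the median ratio was 0.903 and 1.32 in these comparisons. It thus lay on the same side of 1 without any selection. Families called against the side of the median also had shorter reads mostly on their own side. This held for 12 of 12 higher in late torpor against post-reproduction and 6 of 6 lower in early arousal against late torpor. In early arousal against post-reproduction, with a median of 1.22, it held for 19 of 20 lower and 14 of 15 higher families.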

How the data were processed

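Small RNA of 3 pooled liver libraries was read from 1 deposited table. The deposited unit is a whole-number count, held in text entries that also give the read and the stage. Capitals mark the placed bases of each 30-base read and lower case the rest. For the aligner and the genome build, no name is given in the sources used here. The members and lists were chosen with earlier results of these data known. Each read was counted once per library and scaled to placed reads. Depth was 5611673 to 5860476 placed reads per library. Each ratio was given an exact 95% interval from the conditional binomial distribution (Clopper-Pearson) (scipy 1.17.1, Python 3.11.15, numpy 2.4.6, pandas 2.3.3, matplotlib 3.10.9), and log2 ratios a prior count of 0.5. PCR reads without molecular identifiers are not independent molecules, and these intervals, like the limits set by a count of 0, hold counting error alone. With 1 library per stage no p-value is given.

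The 3′ adapter, per the labels' protocols, was searched with at most 1 mismatch over at least 5 bases. Remnants of 1 to 4 bases had to be exact and next to the end of the placed part, a rule set after the data were seen, as was the 50% limit for box letters. RNA names and classes were given from general knowledge of the sequences after reads and counts had been seen, and were not matched to a database. Reads of other placed length were counted where they overlapped a locus by at least 15 bases, not by their lines. Loci named by rule were the 15 most read families and, for each comparison, up to 6 largest and 6 smallest ratios among families with at least 100 reads over both libraries, at least 2-fold and with an interval excluding 1. Marker miRNAs could not be matched to a table and were not counted. Alternatives were other scalings, read minimums, merge distance, reads on 1 line, adapter tails, 1 locus per family and, added later, inserts of at least 24 bases. Trimmed mean of M-values (30% and 5% trimmed) and median-of-ratios factors came from own code, which was tested on simulated data.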

Additional observations from a re-analysis of the deposited data

How the results depend on the processing

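No paired analysis was possible because each stage has 1 library. Values for late torpor against post-reproduction, early arousal against post-reproduction and early arousal against late torpor are called the first, second and last comparison here.

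With trimmed mean of M-values scaling the median log2 ratio over loci was -0.32, -0.34 and -0.17. In the second comparison 23 loci were higher and 144 lower, and in the last 46 and 62. The ratio of the class share was 0.706, 0.702 and 0.994. With median-of-ratios scaling the medians were -0.30, -0.30 and -0.16, the counts 37 higher and 133 lower in the second and 55 and 59 in the last comparison, and the share ratios 0.719, 0.720 and 1.002. With scaling to the reads placed over 24 to 29 bases the medians were 0.18, 0.18 and -0.17. There 84 loci were higher and 29 lower in the first comparison, 41 lower in the second, and 46 higher and 59 lower in the last. These scalings shift every locus by the same amount, so the direction of the last comparison's median depends on the scaling.

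A minimum of 50 reads left 18 higher loci in the first comparison, 57 lower in the second and 13 lower in the last, with fewer loci tested. A merge distance of 30 bases gave medians of -0.34 in the first and 0.046 in the second comparison, and 53 lower loci in the second. One locus per family gave 12 higher and 40 lower in the first, 19 and 22 in the second and 35 and 6 in the last comparison, and a median of 0.088 in the second. Reads on 1 line only gave 5 higher and 18 lower in the first, 12 and 11 in the second and 17 and 1 in the last comparison, medians of -0.28, 0.27 and 0.50, class shares of 2.96%, 2.60% and 1.66%, and share ratios of 0.559, 0.877 and 1.57.

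Requiring the unplaced tail to be the adapter start gave class shares of 0.340%, 0.427% and 0.308% with ratios of 0.905, 1.26 and 1.39. It gave medians of -0.30 and 0.072 in the first and second comparison, 59 lower loci in the first, 45 lower in the second, and 62 higher and 13 lower in the last. Inserts of at least 24 bases, an alternative chosen after seeing the data, gave shares of 0.782%, 1.10% and 0.708%, ratios of 0.905, 1.41 and 1.56, a median of -0.24 in the first comparison, and 90 lower loci in the first and 39 in the second. The log2 ratio of miR-122-5p in the first comparison reversed to 0.88 with adapter tails and 0.37 with such inserts, and the cause was not tested. Such inserts were 1.47% of the reads of that locus. Over the named loci and all alternatives run, 330 values kept their call and lay within the main interval. Another 228 kept their call and lay outside it, 37 lost and 15 gained the 2-fold call, and 2 reversed. Reversal was counted only for loci with a call in the main run. Changes of direction at loci without a call, as at let-7f-5p, are therefore not among the 2. Loci with few reads have wide counting intervals, and differences within them were not detectable at this depth.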
